A study of Mus musculus with 6 samples.

Results

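Of the 52997 gene symbols in the count table, 9 belong to the EGR, NR4A and IER groups of immediate early genes described here. They were taken by symbol: Egr1, Egr2 and Egr3, Nr4a1, Nr4a2 and Nr4a3, and Ier2, Ier3 and Ier5. This group and the gene lists below were chosen with earlier results of these data known. The numbers of them called, set beside the share of all genes, are therefore a description and not a test of the group. The cells were mesenchymal stromal cells sorted from C57BL/6 mice of 8 weeks at homeostasis, with no treatment or altered allele in either group. One group came from hindlimb skeletal muscle and the other from inguinal, axillary, brachial and cervical lymph nodes combined, with 3 libraries of 1000 cells each. The submitters call the libraries biological replicates, but a pair of muscle titles share a number, so the number of animals behind the 3 muscle libraries is uncertain, and p-values measure the spread between libraries. Neither the sorting markers nor the way each tissue was taken apart is given in the sources used here. Handling of a tissue before sorting cannot be told apart from the tissue itself.

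Immediate early genes are copied within minutes of a stimulus, from factors already present in the cell and without new protein synthesis. Growth factor signals reach many of them through ERK kinases and serum response factor, which binds a DNA element called the CArG box, or through CREB, which binds cyclic AMP response elements. EGR proteins are zinc finger factors that bind GC-rich DNA, NR4A proteins are orphan nuclear receptors that act without a known hormone, and the IER genes encode proteins that modulate growth, survival and stress signalling. In connective tissue cells these genes are known to respond to serum, wounding, mechanical strain and the isolation of cells from tissue. Their messages are short-lived.

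RefSeq promoter windows (GRCm38.p6) were at hand for 6 of the 9 members, and the stretches below show the elements named above in the members that hold them. The 250 bases before each start were searched on both strands for the CArG box, for TGACG (1 arm of the cyclic AMP response element TGACGTCA, also counted inside the whole element) and for the NF-kB site. Capitals mark the matches, and CGTCA is TGACG on the other strand. All stretches run 5′ to 3′ on the gene's strand and hold no GENCODE exon of the gene.
Egr2 (chr10:67537743-67537833, plus strand): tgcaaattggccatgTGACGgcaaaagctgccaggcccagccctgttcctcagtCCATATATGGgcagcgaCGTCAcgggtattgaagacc
Nr4a1 (chr15:101266598-101266825, plus strand): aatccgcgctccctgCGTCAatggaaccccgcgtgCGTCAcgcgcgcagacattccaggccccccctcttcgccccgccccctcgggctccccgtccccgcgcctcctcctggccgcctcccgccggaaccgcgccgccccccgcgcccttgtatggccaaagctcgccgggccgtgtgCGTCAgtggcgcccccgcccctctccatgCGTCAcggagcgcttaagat
Nr4a2 (chr2:57124095-57124218, minus strand): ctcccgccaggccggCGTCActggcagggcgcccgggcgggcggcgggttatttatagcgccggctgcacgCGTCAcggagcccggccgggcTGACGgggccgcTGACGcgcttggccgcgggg
Nr4a3 (chr4:48045059-48045119, plus strand): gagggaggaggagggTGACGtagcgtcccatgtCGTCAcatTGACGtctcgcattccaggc
Ier3 (chr17:35821606-35821645, plus strand): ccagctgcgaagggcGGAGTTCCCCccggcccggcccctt

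A CArG box was found upstream of 1 of the 6 members, Egr2, where it stands 72 to 63 bases before one of its annotated starts between a pair of TGACG matches; windows of other Egr2 starts hold one too. Of all 27025 genes with RefSeq windows, 1.62% hold a CArG box in the same 250 bases of any window. TGACG occurred upstream of 4 of the 6 (Egr2, Nr4a1, Nr4a2 and Nr4a3), against 19.8% of all genes. Nr4a1, Nr4a2 and Nr4a3 each hold 4 TGACG matches, 1 of those of Nr4a3 lying in a GENCODE exon and so outside the stretch shown, and 0.163% of all genes have a window with 4 or more. The whole element TGACGTCA was in none of the 6, and 1.77% of all genes hold it. The NF-kB site upstream of Ier3 (8.23% of all genes hold one) was its only match to the 3 elements, a further window of Egr2 also held one, and Ier5 held no match to the 3. These are letter matches, not measured binding.

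Total counts ran from 415460 to 2397134 per library, and levels are given as CPM, counts scaled to a common library size by TMM, on which 1 count equals between 0.43 and 2.69 CPM. The smallest is muscle library 4, which also stands apart in its blood cell transcripts. All 12 stromal markers listed (such as Pdgfra, Col1a1 and Dcn) had counts in every library, with summed levels from 69231 to 108247 CPM and 75911 CPM in muscle library 4. Summed markers of T cells (12 genes) were at 556 CPM in muscle library 4 against between 6.28 and 17.4 CPM in the other 5 libraries, those of B cells (9 genes) at 2239 against between 18.8 and 263 CPM, those of myeloid cells (11 genes) at 817 against between 22.7 and 38.7 CPM, and those of red cells (5 genes) at 626 against between 6.85 and 13.1 CPM. Of the myeloid sum in muscle library 4, 589 CPM was Ptprc, which T and B cells also express, so most of it is not particular to myeloid cells. In that library 0 of the 12 T cell and 0 of the 9 B cell markers lacked counts, and Itgam, Csf1r and Cd68 were the myeloid markers at 0. Elsewhere Cd3d was at 0 in muscle library 2 and in lymph node libraries 1 and 3, and Cd3e in lymph node library 1. The B cell sum of 263 CPM was that of lymph node library 3, mostly Ighm (141 CPM) and Igkc (100 CPM). Each member's fold change is therefore given with and without muscle library 4. In bulk libraries of this kind, fewer cells of a type and less RNA per cell cannot be told apart.

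The comparison asks how stromal cells of the 2 tissues differ at rest. All 9 members passed the filter for testing, and 7 of the 9 were lower in muscle than in lymph node (edgeR quasi-likelihood F test, adjusted p under 0.05), where 2.86% of all 10823 tested genes were. The 7 were Egr1, Egr2, Nr4a1, Nr4a3, Ier2, Ier3 and Ier5, by between 4.53-fold and 12.1-fold. Only Egr1, Nr4a1 and Ier2 would have passed the filter on their muscle libraries alone. The other members passed it through lymph node, where they were higher, so a call higher in muscle was hardly open to them. Egr3 and Nr4a2 were not called, and 0 members were higher by edgeR, DESeq2 or limma-voom, also at an unadjusted p under 0.05 (1.46% of tested genes were higher by edgeR, and 4.79% without muscle library 4). Without muscle library 4, Egr3 was called as well, which makes 8 of 9, where 7.58% of 11246 tested genes were lower. The median log2 fold change of the 9 was -2.82 (-3.08 without muscle library 4), beside 0.02 (0.01) over all tested genes. All muscle libraries lay below all lymph node libraries for 8 of the 9 members, every one but Egr3, and for 13.7% of all tested genes. Without muscle library 4 that was so for all 9, and for 20.4% of tested genes. The summed markers of some other cell types also differed by tissue. Mural cell markers (8 genes) summed to between 113 and 167 CPM in muscle and to between 178 and 201 CPM in lymph node, with Abcc9 lower (-2.59, adjusted p = 0.00143) and Cspg4 higher in muscle (3.01, adjusted p = 4.91e-04). Most of each lymph node sum was Abcc9 (122, 139 and 169 CPM, against 17.4, 23.8 and 37.6 CPM in muscle). Rgs5, Acta2 and Myh11 were at 16.1 CPM or less in every library and overlapped between the tissues, so the sum does not show a difference in mural cells. Markers of muscle fibres and satellite cells (11 genes) summed to between 21.5 and 74.5 CPM in muscle and to between 11.4 and 17.3 CPM in lymph node. The lowest muscle sum was that of muscle library 4, where 1 count equals 2.69 CPM and Acta1, Ckm and Tnnt3 were at 0. In muscle libraries 2 and 3 the leading gene was Acta1, at 35.3 and 32.3 CPM. Endothelial markers (9 genes) overlapped, at between 245 and 387 CPM in muscle and between 274 and 356 CPM in lymph node. Most of each endothelial sum was Tek, except in muscle library 4, where Tek was at 121 CPM. There Pecam1 (59.1 CPM), Prox1 (29.6 CPM) and Lyve1 (24.2 CPM) stood above all other libraries (at most 3.84, 4.61 and 1.14 CPM), while Cdh5 and Tie1 were at 0. The part of these cell types in the members' differences was not tested.

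**Figure D1:**
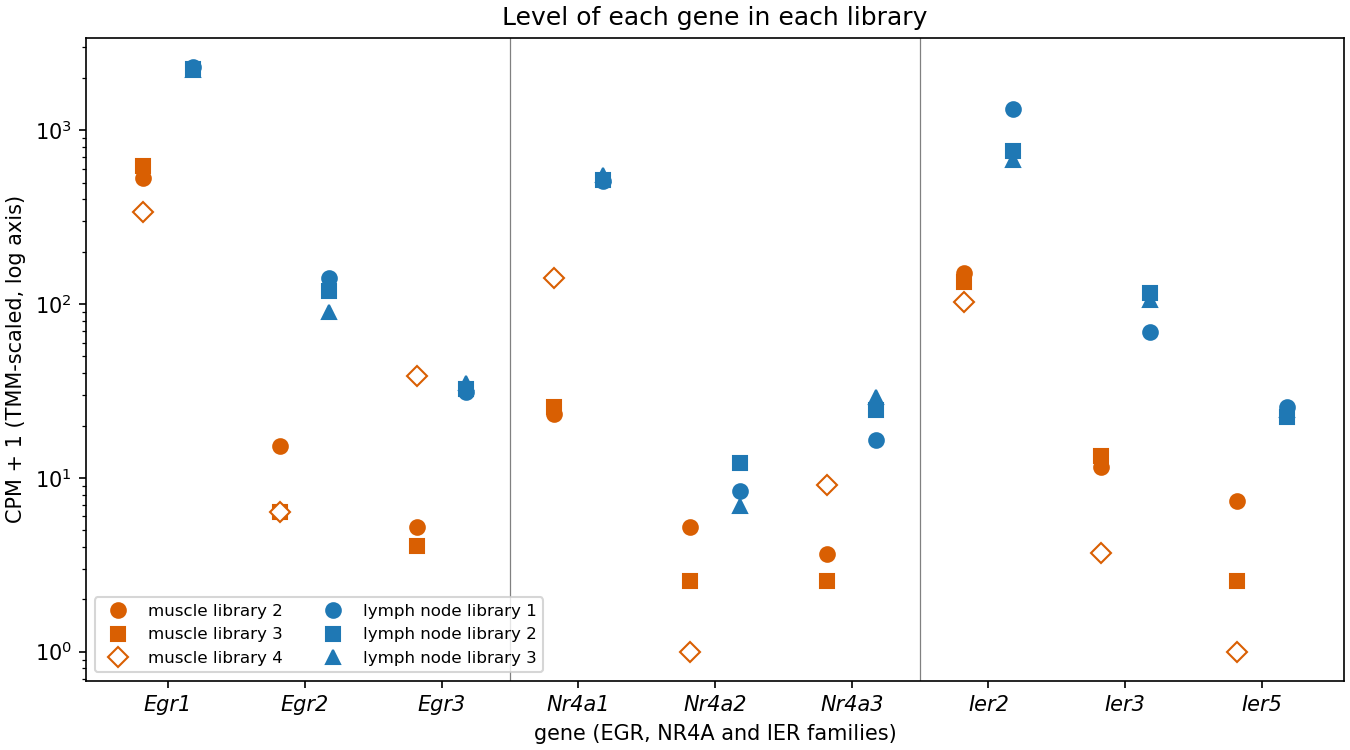
CPM plus 1 (TMM-scaled, log axis) of each gene in each library, muscle in orange and lymph node in blue; open diamonds are muscle library 4. The orange points lie below the blue ones for every gene except Egr3, where muscle library 4 (37.6 CPM) is level with the lymph node libraries, and for Nr4a1 that library (139.8 CPM) lies between the other muscle libraries and lymph node.

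Egr1 (chromosome 18, 34859823 to 34864984, GRCm38) encodes the zinc finger factor that is the best known early responder to growth factors and injury. It measured 527, 620.1 and 339 CPM in muscle libraries 2, 3 and 4. In lymph node libraries 1, 2 and 3 it measured 2313, 2255 and 2209 CPM. The lymph node libraries were nearly level, and each was above every muscle library by more than the spread within either tissue. The lymph node mean was 2259 ± 52.0 CPM and the muscle mean 495 ± 143 CPM (SD over 3 libraries each), a log2 fold change of -2.18 ± 0.24 (SE, edgeR adjusted p = 0.00114), and of -1.99 ± 0.14 without muscle library 4 (adjusted p = 3.00e-07). Egr1 kept its call without any 1 of the 6 libraries. Of the called members it had the smallest fold (4.53, and 3.96 without muscle library 4), but whether its change differs from that of the other members was not tested.

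Egr2 (chromosome 10, 67535475 to 67542188), a factor best known from Schwann cell myelination and from the restraint of T cells, was far less abundant. Muscle libraries 2, 3 and 4 held 14.2, 5.38 and 5.38 CPM (27, 7 and 2 counts), and lymph node libraries 1, 2 and 3 held 139.9, 118 and 89.2 CPM. The groups did not overlap. The log2 fold change was -3.59 ± 0.38 (adjusted p = 0.00114), which is 12.1-fold lower in muscle, and -3.46 ± 0.31 without muscle library 4 (adjusted p = 3.55e-06). It was 21.4-fold without muscle library 2, the highest of the muscle libraries, and the call held without any 1 library. Schwann cell markers (5 genes) summed to between 29.2 and 34.3 CPM in lymph node, to 10.02 and 9.99 CPM in muscle libraries 2 and 3, and to 51.1 CPM in muscle library 4. Most of these sums in lymph node and in muscle library 4 was Mbp, which encodes a myelin protein, at 26.8, 15.9 and 22.3 CPM in lymph node and at 2.11, 3.07 and 43.0 CPM in muscle. Mbp was not called with all libraries (-1.14, adjusted p = 0.654) and was lower in muscle without muscle library 4 (-3.07, adjusted p = 3.91e-04), while Sox10, which defines the lineage, was at 0 in all 3 lymph node libraries. Their part in the Egr2 values was not tested.

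Egr3 (chromosome 14, 70077203 to 70082614), a close relative of Egr2 needed for muscle spindles, was called without muscle library 4 and not with it. It measured 4.22, 3.07 and 37.6 CPM in muscle libraries 2, 3 and 4 (8, 4 and 14 counts). In lymph node libraries 1, 2 and 3 it measured 30.3, 31.4 and 34.1 CPM. Muscle library 4 lay above all lymph node libraries, while the other muscle libraries lay far below them. Its 95% counting interval ran from 20.6 to 63.1 CPM and did not meet those of muscle library 2 (1.82 to 8.31 CPM) or 3 (0.84 to 7.87 CPM). With all libraries the difference was within the spread of muscle, at -1.75 ± 0.74 on the log2 scale (adjusted p = 0.306). Without muscle library 4 it was -3.08 ± 0.35 (adjusted p = 2.89e-05), which is 8.46-fold lower in muscle. With that library kept, Egr3 was also called under limma-voom (-2.58, adjusted p = 0.0109) and with no filter (adjusted p = 0.00221). It was called too with muscle library 4 summed with library 2 or 3 (adjusted p = 7.54e-04 and 0.00191), which pools it with a larger library. The gene was not called under DESeq2 (-1.30, adjusted p = 0.475). Nor was it called by edgeR without muscle library 2 or 3 (-1.15 each, adjusted p = 0.549 and 0.569). The remaining gene of this family, Egr4, had 3 counts in muscle library 2 and 0 in each other library, and was below the filter.

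Nr4a1 (chromosome 15, 101254269 to 101274795), also called Nur77, is rapidly induced in lymphocytes by antigen receptors and in macrophages and fibroblasts by many signals. It measured 22.2, 24.6 and 139.8 CPM in muscle libraries 2, 3 and 4. In lymph node libraries 1, 2 and 3 it measured 512, 519 and 554 CPM. The groups did not overlap, yet muscle library 4 stood well above the other muscle libraries, with 52 counts and an interval from 104 to 183 CPM. The log2 fold change was -3.37 ± 0.61 with all libraries (10.3-fold lower, adjusted p = 0.0141) and -4.51 ± 0.18 without muscle library 4 (22.8-fold lower, adjusted p = 2.12e-09). Without any 1 of the other 5 libraries, each time with muscle library 4 kept, the adjusted p lay between 0.0584 and 0.0834.

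The high Nr4a1 and Egr3 of muscle library 4 stood beside its summed T cell, B cell, myeloid and red cell markers given above, each of which was also highest there. The part of these markers in the Nr4a1 and Egr3 values was not tested. Nr4a3 was also highest in muscle library 4 among the muscle libraries, from 3 counts. Egr1, Ier2 and Ier3 were lowest in muscle library 4 among the muscle libraries (339, 102 and 2.69 CPM), Nr4a2 and Ier5 had 0 counts there, and Egr2 was level with muscle library 3.

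**Figure D2:**
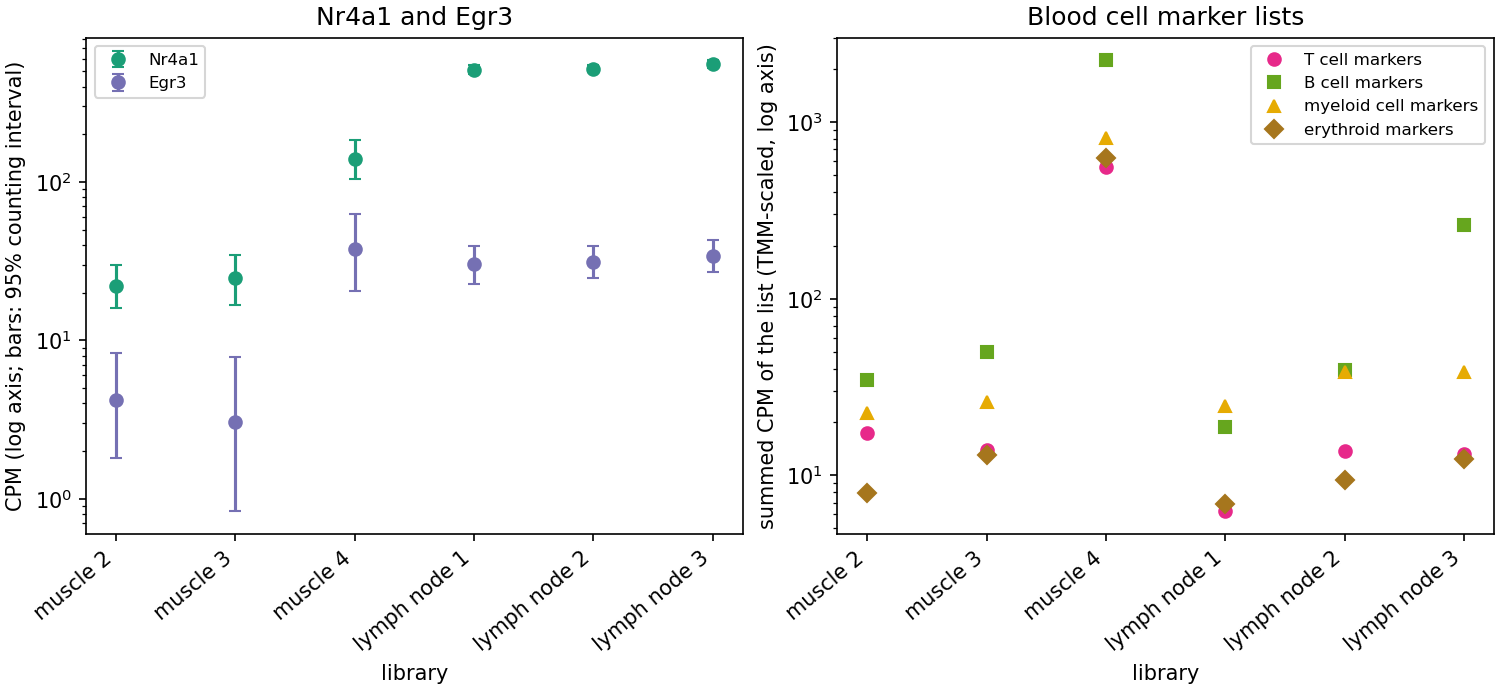
Left, CPM of Nr4a1 and Egr3 by library with 95% counting intervals; right, summed CPM of 4 blood cell marker lists by library (all axes logarithmic). Muscle library 4 is the highest library for each marker list and the highest muscle library for both genes.

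Nr4a2 (chromosome 2, 57106830 to 57124003), known for its role in dopamine neurons and as an inflammatory mediator in joint fibroblasts, was near the limit of detection. It had 8, 2 and 0 counts in muscle libraries 2, 3 and 4 and 13, 26 and 13 counts in lymph node libraries 1, 2 and 3. That is 4.22, 1.54 and 0 CPM against 7.42, 11.2 and 5.92 CPM. The groups did not overlap, but the 0 of muscle library 4 allows a level of up to 8.06 CPM (3 counts), which is above 2 of the lymph node libraries. The difference was not called, with a log2 fold change of -1.63 ± 0.66 (adjusted p = 0.275) and -1.41 ± 0.59 without muscle library 4 (adjusted p = 0.157). Summed counts gave 2.96 times as much in lymph node (95% counting interval 1.49 to 6.53, which leaves out the spread between libraries). Without muscle library 2, 2 muscle counts remained and the ratio was 6.93 (1.83 to 58.8).

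Nr4a3 (chromosome 4, 48045153 to 48086447), the third of these receptors, had 5, 2 and 3 counts in muscle and 27, 55 and 62 in lymph node. Its levels were 2.64, 1.54 and 8.06 CPM against 15.4, 23.6 and 28.2 CPM. No muscle library reached the lowest lymph node library. The log2 fold change was -2.90 ± 0.57 (7.44-fold lower, adjusted p = 0.0204), and -3.34 ± 0.48 without muscle library 4 (adjusted p = 2.64e-04). With 10 muscle counts in all, the ratio of summed counts had a 95% counting interval from 4.33 to 17.4. Leaving out any single library except muscle library 4 ended the call (adjusted p at most 0.155).

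Among the IER genes, Ier2 (chromosome 8, 84661331 to 84662852), a nuclear protein linked to cell movement, was the most abundant. It measured 149.8, 132 and 102 CPM in muscle libraries 2, 3 and 4 and 1324, 760.4 and 670.2 CPM in lymph node libraries 1, 2 and 3. Muscle was even, while lymph node library 1 stood above the other lymph node libraries. The difference was larger than this spread, at -2.82 ± 0.30 on the log2 scale (7.06-fold lower, adjusted p = 0.00114), and -2.71 ± 0.26 without muscle library 4 (adjusted p = 6.58e-06).

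Ier3 (chromosome 17, 35821684 to 35822923), also called IEX-1, which modulates cell death and ERK and NF-kB signalling, measured 10.5, 12.3 and 2.69 CPM in muscle and 68.0, 114 and 105 CPM in lymph node. Here lymph node library 1 was the lowest of its tissue, the reverse of Ier2. The log2 fold change was -3.25 ± 0.36 (9.54-fold lower, adjusted p = 0.00131), and -3.09 ± 0.28 without muscle library 4 (adjusted p = 3.88e-06). Ier2 and Ier3 kept their calls without any 1 of the 6 libraries.

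Ier5 (chromosome 1, 155096361 to 155099636), which brings the phosphatase PP2A to the heat shock factor HSF1, had 12, 2 and 0 counts in muscle (6.33, 1.54 and 0 CPM). Lymph node was even at 24.6, 21.5 and 23.7 CPM. All muscle values lay below these, also the limit of 8.06 CPM that the 0 of muscle library 4 allows. The log2 fold change was -2.66 ± 0.57 (6.30-fold lower, adjusted p = 0.0319) with all libraries, and -2.42 ± 0.43 without muscle library 4 (adjusted p = 0.00139). The call ended in fits lacking muscle library 3 or one of the lymph node libraries (adjusted p at most 0.169). Muscle library 2 held 12 of the 14 muscle counts, and without it the ratio of summed counts, lymph node over muscle, went from 5.89 (95% counting interval 3.40 to 11.0) to 19.3 (5.26 to 161). The related Ier5l had 8, 1 and 1 counts in muscle and 1, 1 and 4 in lymph node, below the filter.

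**Figure D3:**
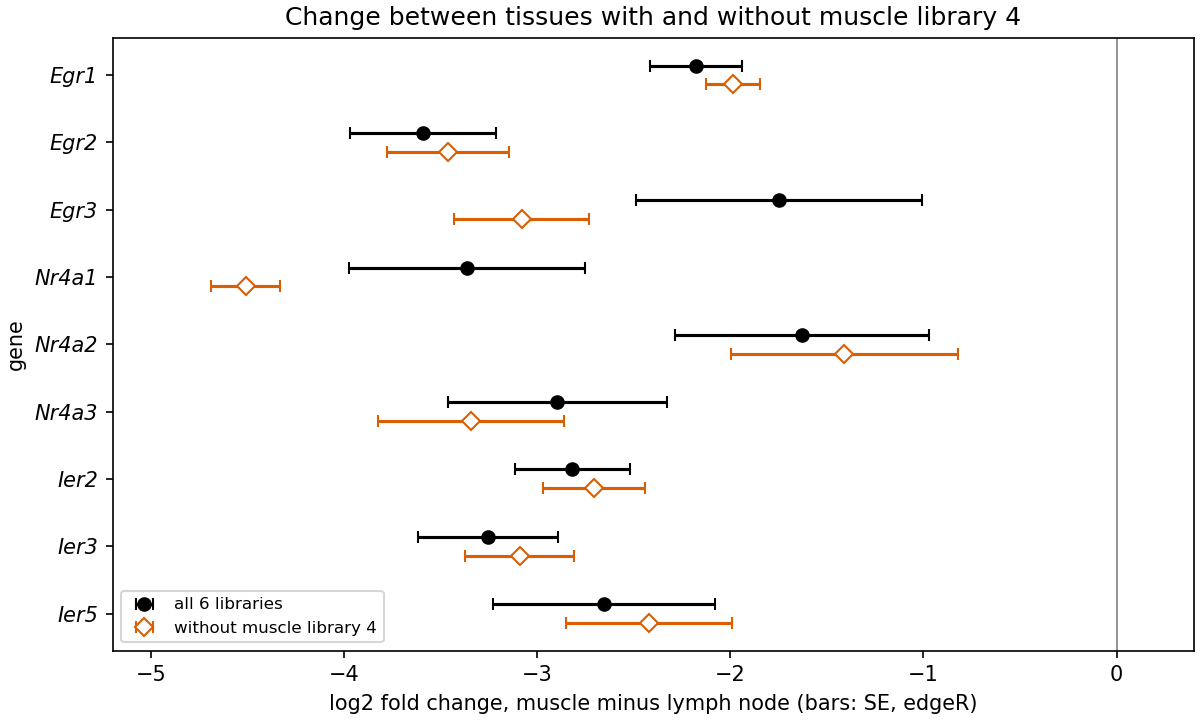
Log2 fold change, muscle minus lymph node, of each gene (points) with its standard error from edgeR (bars), with all 6 libraries and without muscle library 4. All values are below 0; Egr3 goes from -1.75 to -3.08 and Nr4a1 from -3.37 to -4.51 without that library, and their bars shorten.

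Summed by family, EGR genes reached 2407 ± 75.3 CPM in lymph node against 519 ± 126 CPM in muscle (SD over 3 libraries each), IER genes 1037 ± 332 against 139 ± 31.5 CPM, and NR4A genes 559 ± 26.9 against 68.2 ± 69.0 CPM. The NR4A mean of muscle was 28.3 CPM without muscle library 4, which turns a ratio of 8.20 into 19.7. For the EGR genes that ratio went from 4.64 to 4.10 and for the IER genes from 7.45 to 6.63. All 9 genes together came to 4003 ± 380 CPM in lymph node and 726 ± 84.9 CPM in muscle. Egr1 supplied 71.1% and 77.3% of the 9 genes' counts in muscle libraries 2 and 3 (exact 95% intervals 68.7 to 73.5% and 74.6 to 79.8%). It supplied 53.4% (46.8 to 59.9%) in muscle library 4 and between 52.2% and 59.4% in lymph node. The make-up of the group thus differed between muscle libraries 2 and 3 and the other 4 libraries beyond counting error, which is a description of single libraries and not a test of tissue. By the same intervals muscle libraries 2 and 3 also differed from each other. So did lymph node library 1 (51.0 to 53.3%) from lymph node libraries 2 (57.5 to 59.5%) and 3 (58.3 to 60.5%).

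Levels of different genes were compared per length, as CPM per kb of annotated exon. In lymph node the order from high to low was Ier2, Egr1, Nr4a1, Ier3, Egr2, Egr3, Ier5, Nr4a3 and Nr4a2. Ier2 (603 ± 233 CPM per kb) and Egr1 (504 ± 11.6) overlapped between libraries, as did Egr3 (7.25 ± 0.45) with Ier5 (7.09 ± 0.48) and Nr4a3 (3.75 ± 1.08) with Nr4a2 (2.01 ± 0.67), while the other neighbours did not. Nr4a1 stood at 151 ± 6.36, Ier3 at 84.7 ± 21.7 and Egr2 at 34.1 ± 7.48 CPM per kb. In muscle Egr1 (110.5 ± 32.0 CPM per kb) came before Ier2 (84.1 ± 15.8), which overlapped, and Egr3 (3.40 ± 4.46) came before Egr2 (2.45 ± 1.51). Without muscle library 4 the Egr1 and Ier2 libraries no longer overlapped. Ier3 (10.1, from 9.33 to 10.9) then came before Nr4a1 (6.66, from 6.31 to 7.01), the reverse of their order with all libraries. Egr2 (2.89) came before Egr3 (0.83), with Ier5 (1.20) between them, and Nr4a3 (0.35) in place of Nr4a2 (0.71) came last. With all 3 muscle libraries every pair of neighbours below Ier2 overlapped, from Nr4a1 (17.7 ± 19.2) and Ier3 (7.52 ± 4.52) down to Nr4a2 (0.47 ± 0.53).

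**Figure D4:**
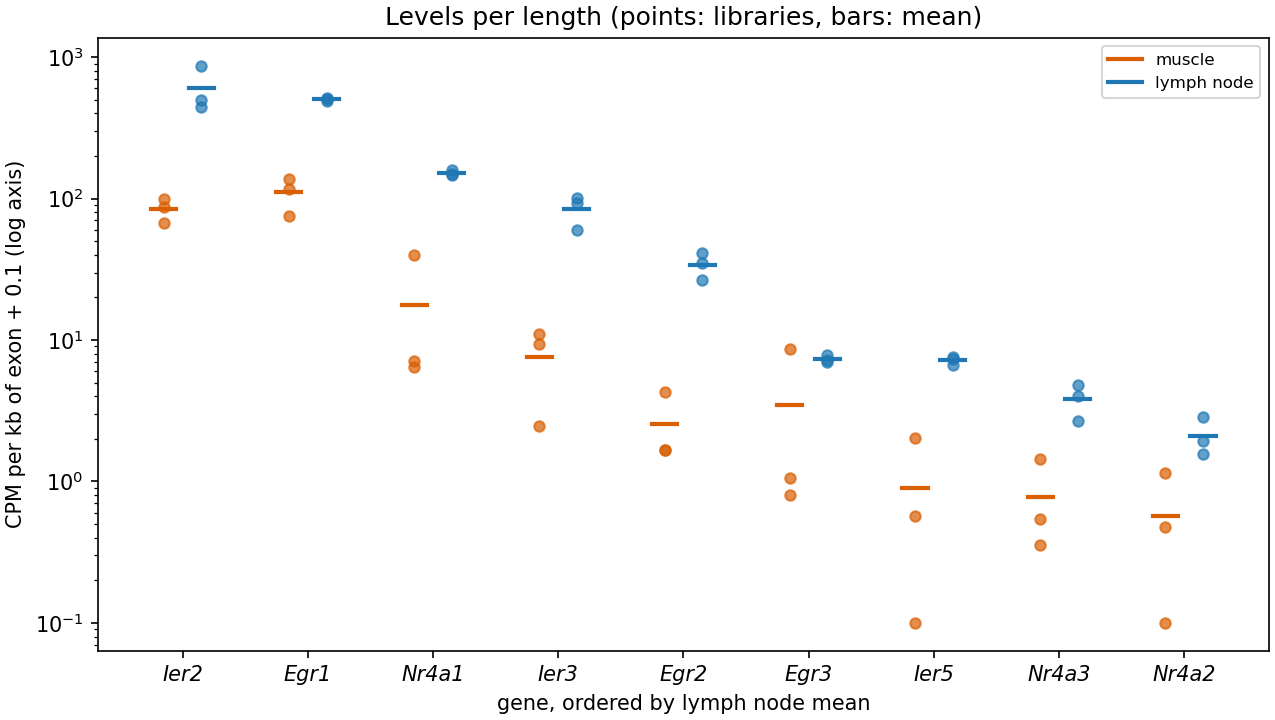
CPM per kb of exon plus 0.1 (log axis) for each gene, with 1 point per library and the mean of each tissue as a bar. Ier2 and Egr1 are the most abundant genes in both tissues. Nr4a2 has the lowest mean in both, in muscle only with muscle library 4, where it is at 0.

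Reads of the members were close to unique. Between 0% and 1.39% of their 25-base words, the length of a read, also occur in transcripts of other genes (Egr3 has the highest share), and no annotated gene overlaps any of the 9 on either strand. The genes with the profile closest to the members' mean, among 6705 candidates, were Ces2g, Adam23, Ifi205, Gem and Junb. Their distances over the 6 libraries ran from 0.39 to 0.62 on the log2 scale, where the members themselves lay between 0.86 and 2.74 from their mean. Gem, a small GTPase that responds early to stimulation, measured 650.2 ± 59.9 CPM in lymph node and 117 ± 22.6 CPM in muscle, and the AP-1 factor Junb 2465 ± 79.1 against 303 ± 29.0 CPM. Adam23, a membrane protein of the ADAM family, measured 63.5 ± 3.14 against 10.7 ± 0.12 CPM. The carboxylesterase Ces2g and the interferon-inducible Ifi205 are less certain as single genes, since 15% and 23.1% of their words occur in other genes. For Junb that share is 6.75%, and the protein-coding Prdx2 overlaps it on the other strand. Adam23 is overlapped on the other strand by the small RNA gene Gm22281. The strand setting of the counting is not given. All 5 genes were chosen for their likeness to the members, so their differences are a description.

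Of the other immediate early genes listed (39 tested, among them Fos, Jun, Zfp36 and Btg2), 25 were lower in muscle, 1 was higher and 13 were not called, with a median log2 fold change of -1.63. Without muscle library 4 it was 29 lower and 1 higher of 40. Of all tested genes, 2.86% were lower and 1.46% higher, and 7.58% and 4.79% without muscle library 4. The listed gene that was higher was Ctgf, a matricellular YAP target (2.67 ± 0.33, adjusted p = 0.00211, and 2.33 without muscle library 4). Cyr61, a YAP target in the same list, went the other way (-3.12 ± 0.25, adjusted p = 4.45e-04, and -2.93 without muscle library 4). Without 1 of the lymph node libraries 2 or 3 the number of listed genes lower was 18, where 1% and 1.14% of all tested genes were. Of 10 heat shock and chaperone genes, 5 were lower in muscle and 5 were not called (6 were lower without muscle library 4), with a median of -1.09. The 5 were Hspa8, Hspb1, Dnajb1, Dnaja1 and Hsp90aa1. The co-chaperone Dnajb1, a target of the HSF1 factor that Ier5 acts on, measured 768 ± 241 CPM in lymph node and 67.4 ± 14.6 CPM in muscle (-3.55 ± 0.30, adjusted p = 4.45e-04, and -3.69 without muscle library 4). Hspa1b (-0.01) was among the 5 not called. The part of the called heat shock genes in the members' differences was not tested.

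The genes that encode the upstream machinery and the partners of these proteins were not called. Of 33 tested (EGR corepressors, serum response factor and its cofactors, CREB factors and coactivators, ERK cascade kinases, RXR partners of NR4A, PP2A B55 subunits and HSF1), 0 were lower and 0 higher by edgeR, DESeq2 or limma-voom, with 3 at an unadjusted p under 0.05 in edgeR. Of all tested genes, 2.86% were lower and 1.46% higher by edgeR, so 0 of 33 is near that share and says little about these genes. The log2 fold changes of the 33 lay between -0.78 and 1.25, with a median of 0.13. Without muscle library 4, 0 of 33 were called and 7 had an unadjusted p under 0.05, with a median of 0.02. In that fit 7.58% of all tested genes were lower and 4.79% higher. Srf, whose protein binds the CArG box, had a muscle level of 14.4 ± 8.55 CPM and a lymph node level of 13.3 ± 4.68 CPM (-0.09 ± 0.49, adjusted p = 0.963). Its partners Elk4 and Mkl2 measured, muscle against lymph node, 106 ± 17.9 against 87.2 ± 18.5 CPM and 71.9 ± 24.7 against 72.2 ± 7.04 CPM. The coactivators Crebbp (172 ± 47.7 against 166 ± 1.90 CPM) and Ep300 (86.1 ± 10.4 against 70.4 ± 11.0 CPM) and the kinase Araf (118 ± 43.8 against 91.5 ± 9.76 CPM) were likewise not called.

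Nab1 and Nab2 bind EGR proteins and repress their action, and Nab2 is itself a known EGR target. In the same order, Nab1 measured 19.5 ± 7.08 against 18.2 ± 2.09 CPM (0.13 ± 0.36, adjusted p = 0.92). Nab2 measured 16.4 ± 18.5 against 7.46 ± 1.47 CPM (0.75 ± 0.75, adjusted p = 0.731). Its muscle libraries 2, 3 and 4 held 6.86, 4.61 and 37.6 CPM, and without muscle library 4 the fold change turned to -0.34 (adjusted p = 0.753). Rxra, which pairs with Nr4a1 and Nr4a2, measured 34.7 ± 6.65 against 42.2 ± 9.24 CPM, and Rxrb 8.51 ± 9.79 against 9.22 ± 2.12 CPM. The PP2A subunit Ppp2r2a measured 82.1 ± 15.1 against 65.8 ± 10.1 CPM and Hsf1 39.4 ± 22.6 against 47.7 ± 9.55 CPM. A p above the threshold does not show that these genes are equal between the tissues.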

How the data were processed

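Messenger RNA was sequenced from sorted mesenchymal stromal cells of mouse hindlimb muscle and lymph node. The authors' deposited table holds raw counts of reads or fragments per gene symbol, 1 column per library. Per the submitters' processing notes, STAR 2.5.4, featureCounts and the mm10 build were used. Strand setting, annotation release and the counting of multiply aligned reads: not given in the sources used here. No molecular identifiers are described, so counting intervals cover counting error only. Columns were assigned to tissue by name. Numbers of the muscle columns (2, 3 and 4) and of the muscle titles disagree, so the columns stand for the muscle group only and not for single samples.

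The members were taken by symbol. The members and the gene lists were chosen with earlier results of these data known. All 9 members, Egr4 and Ier5l are named whatever their result. From each list of pathway partners, called genes and the 2 uncalled genes with the highest mean level are named. Of the genes this takes, 1 is not reported here. Similar genes are the 5 tested non-members of at least 20 mean CPM whose centred log2 CPM (prior count 2) lay closest to the members' mean profile over 6 libraries; unnamed gene models were passed over.

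All 6 libraries were tested with edgeR 4.0.16 (R 4.3.3): filterByExpr (10823 genes kept), TMM scaling and the two-sided quasi-likelihood F test on tissue, adjusted by Benjamini-Hochberg over all tested genes, threshold 0.05. Fold changes (log2) are given as muscle minus lymph node, with the log2 value over the root of F as standard error. CPM uses the TMM-scaled library size. Alternatives were other scalings (total count, RLE, upper quartile), other filters (none, or 3 libraries at 10 CPM or more), limma-voom (limma 3.58.1), DESeq2 1.42.0, a block by column number, summing each pair of muscle libraries, thinning to the smallest library, and leaving out each library. The scripts were checked with simulated data. Exon lengths, gene coordinates and shared 25-base words come from GENCODE M21 (GRCm38, also called mm10), and promoter windows from RefSeq (GRCm38.p6).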

Additional observations from a re-analysis of the deposited data

How the results depend on the processing

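Over the alternatives, all 158 recomputed fold changes of members were below 0: 135 kept their side of the threshold, 17 lost the call (Nr4a1, Nr4a3 and Ier5) and 6 gained it (Egr3). Nr4a1 was -4.16 under limma-voom. Of 9 members, 7 were called lower, and 4 when muscle libraries 2 and 3 were summed; leaving out 1 library gave between 4 (without muscle library 3 or a lymph node library) and 8 (without muscle library 4). Genes called lower in all numbered 310 (526 with no filter, 903 with the replicate block, 167, 872 and 772 with muscle libraries 2 and 3, 2 and 4, or 3 and 4 summed, and between 114 and 852 without 1 library). Genes called higher numbered 158 (419 with no filter, 260 with DESeq2, 627 with the replicate block, 55, 563 and 494 with the same sums, and between 28 and 539 without 1 library). The replicate block by column number called 8 members lower; muscle library 4 and lymph node library 1 have no partner in it, and the numbers share no stated source. Of the pathway partners, that block called 2 higher (Elk4 among them), and summing muscle libraries 3 and 4 called 1 lower (Rps6ka3). The other immediate early genes called lower ranged from 18 to 29. Thinned to 415460 counts, Egr3 was -0.55 (not called) and Nr4a2, Nr4a3 and Ier5 fell below the filter, as Nr4a2 did under the stricter one. Depth limits Nr4a2, Nr4a3 and Ier5, with at most 14 muscle counts each. Causes of these changes were not tested.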
